A study of Mus musculus with 20 samples.

Results

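The collagen chain genes are described here in sorted mouse microglia. They were taken as every gene whose symbol in the deposited count table reads Col, a number, the letter a and a number, which gave 44 of 24394 genes. Of these, 39 had enough reads to be tested, and Col10a1, Col19a1, Col24a1, Col6a4 and Col6a5 did not. Poly-A RNA was sequenced from 20 libraries in 6 groups, T2MG and Control mice at embryonic day 16 (E16, 3 libraries each), postnatal day 15 (P15, 3 each) and postnatal day 60 (P60, 4 each). Per the labels, T2MG microglia lack TGF-beta signalling. That entry is empty for P60 T2MG 4, whose group was read from its title. The series' text speaks of the loss of 1 or both copies of Tgfbr2 in microglia sorted by flow cytometry, and which of these genotypes the Control mice had is not stated. All libraries carry the strain entries C57Bl6 and FVB. The Cre driver and the surface markers of the sort were not given in the sources used here.

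Collagens are triple helices of alpha chains that build the fibrous and sheet-like parts of the extracellular matrix. Fibrillar collagens form tensile fibres, type IV collagens form the mesh of basement membranes, and fibril-associated and network-forming chains join or organise other matrix. In the brain most collagen is made by fibroblasts of the meninges, vessels and choroid plexus and by endothelial and mural cells, while microglia, the resident macrophages, are known more for matrix turnover. A collagen transcript in a sort of microglia can therefore come from the microglia or from other cells. Marker genes of such cells are given beside several sets of chains, though not beside every chain.

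E16 libraries held 7437764 to 9221396 counts, P15 libraries 14525739 to 16442355 and P60 libraries 12726594 to 16526122. Levels are counts-per-million (CPM) on library sizes scaled by TMM. Values of single libraries are given in the order of their replicate numbers. A chain is called higher or lower where edgeR's quasi-likelihood test gave an adjusted p (Benjamini-Hochberg, 15568 genes) under 0.05. Fold changes are log2 values, given with their standard error (SE). Tgfbr2, the targeted receptor, had 165 to 232 CPM in E16 T2MG libraries against 196 to 293 CPM in E16 Control libraries, 228 to 471 CPM in P15 T2MG libraries against 501 to 642 CPM in P15 Control libraries, and 452 to 647 CPM in P60 T2MG libraries against 551 to 649 CPM in P60 Control libraries. Its log2 fold changes were -0.26 at E16 (adjusted p 0.573), -0.71 at P15 (adjusted p 0.0305) and -0.16 at P60 (adjusted p 0.544). Counts over the whole gene need not show a deleted exon, so this is a weak check of the labels. The 14 microglial markers summed to 5744 to 9019 CPM in E16 T2MG libraries against 10235 to 20388 CPM in E16 Control libraries. At P15 they summed to 19112 to 27383 CPM in T2MG against 44638 to 66833 CPM in Control. The P60 sums were 29068 to 31855 CPM in T2MG against 76194 to 104305 CPM in Control. Of these markers 7 were called lower in T2MG at E16, 10 at P15 and 10 at P60, and none was called higher. Of all genes 2.67%, 12.3% and 15.7% were called lower at these stages. Single markers differed. At P60 Siglech had 14 to 38.2 CPM in T2MG against 850.5 to 1644 CPM in Control. C1qb had 6616 to 8106 CPM in T2MG there against 5446 to 8823 CPM in Control. Transcripts of blood-derived cells were present as well. The sum of 9 neutrophil and monocyte markers was 25287, 6681 and 21978 CPM in P15 T2MG libraries against 8163, 4733 and 3139.9 CPM in P15 Control libraries, and in P15 T2MG 3 it was above the microglial sum of 19112 CPM. None of the 9 was called at any stage, the P15 sums overlapped between the groups, and their part in the P15 results was not tested.

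Collagen transcripts were most abundant before birth, and in P60 T2MG libraries their sum was above that of P60 Control libraries. Summed over all 44 chains, E16 T2MG libraries had 3128, 960.3 and 1942 CPM and E16 Control libraries 806, 522 and 2594 CPM, so the groups overlapped. At P15 the sums were 338, 424 and 158 CPM in T2MG and 483, 331 and 382 CPM in Control, again with overlap. At P60 they were 149, 157, 159 and 216 CPM in T2MG and 104, 60.9, 81.8 and 72.9 CPM in Control, with every T2MG library above every Control library. E16 Control 3 was far above the other E16 Control libraries in most chains, and P15 T2MG 3 was low in many.

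At E16 no chain of the 39 was called, where 3.20% of all genes tested were called. Col15a1, Col27a1 and Col4a3 (3 chains) had an unadjusted p under 0.05, and DESeq2 called 1 chain (Col15a1, adjusted p 0.0161) while giving 14 chains no adjusted p. At P15, 2 chains were higher and 7 lower in T2MG, 23.1% of the chains tested, beside 24.0% of all genes tested. Of the chains 5.13% were called higher and 17.9% lower there, beside 11.7% and 12.3% of all genes. At P60, 14 chains were higher and 3 lower, 43.6% of the chains, beside 39.3% of all genes. These total shares are near those of all genes. At P60 the split leaned the other way from P15. There 35.9% of the chains were called higher, beside 23.5% of all genes, and 7.69% were called lower, beside 15.7%. The fitted median log2 fold change of the tested chains was 0.68 at E16, -0.10 at P15 and 2.27 at P60. Over all genes it was 0.04, 0.01 and 0.14. The P15 chain median was -0.30 with chains at 0 counts in 1 group set to their bound. That value leaves out chains with 3 or fewer counts in both groups. In all, 19 chains were called in at least 1 of these comparisons, 7 of them in more than 1. The change in the genotype effect between stages was tested as well. From E16 to P15 it was called for 5 chains, higher for Col4a1 and Col4a2 and lower for Col18a1, Col27a1 and Col6a3, which is 12.8% of the chains beside 16.3% of all genes (8.97% higher and 7.31% lower). From P15 to P60 it was called higher for 7 chains (Col17a1, Col18a1, Col4a3, Col4a5, Col6a2, Col8a1 and Col9a3) and lower for none, which is 17.9% of the chains beside 8.02% of all genes (5.63% higher and 2.40% lower). DESeq2 called 13 chains there, with Col27a1 and Col15a1 lower.

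**Figure D1:**
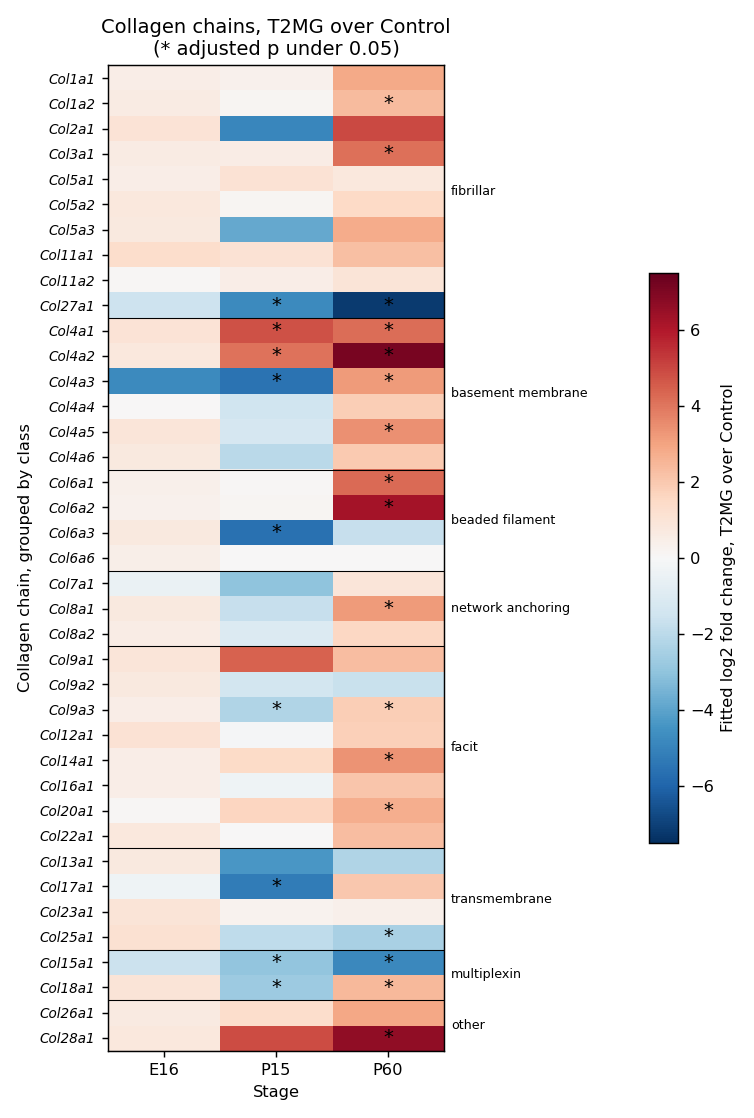
Fitted log2 fold changes of T2MG over Control for the 39 tested collagen chains (rows, grouped by collagen class) at E16, P15 and P60 (columns); red is higher and blue lower in T2MG, and an asterisk marks an adjusted p under 0.05. Colours of chains with 3 or fewer counts in a group depend on the prior count of the fit. No chain is marked at E16, 9 at P15 and 17 at P60, and Col27a1 and Col15a1 are blue at all 3 stages.

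Col27a1 and Col15a1 were the chains called lower in T2MG at both P15 and P60. Col27a1 encodes the chain of a fibrillar collagen known from cartilage, and Col15a1 the core protein of a basement membrane collagen that carries glycosaminoglycan chains. Both lie on chromosome 4 of GRCm38 (the assembly also called mm10) on the plus strand, Col27a1 at 63214004 to 63334991 and Col15a1 at 47208161 to 47313167. Because the pair moved together, the 250 bases before each RefSeq start (GRCm38.p6, plus strand, 5′ to 3′) are shown, with matches to 5 searched motifs in capitals. The first window is chr4:63215162-63215411 and lies inside the span that GENCODE gives Col27a1, and the second is chr4:47207762-47208011.
Col27a1: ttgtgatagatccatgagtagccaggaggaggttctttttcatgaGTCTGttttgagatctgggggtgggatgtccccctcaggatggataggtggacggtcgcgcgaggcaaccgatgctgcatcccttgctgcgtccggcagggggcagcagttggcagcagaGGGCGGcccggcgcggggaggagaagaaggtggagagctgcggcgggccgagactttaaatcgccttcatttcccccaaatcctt
Col15a1: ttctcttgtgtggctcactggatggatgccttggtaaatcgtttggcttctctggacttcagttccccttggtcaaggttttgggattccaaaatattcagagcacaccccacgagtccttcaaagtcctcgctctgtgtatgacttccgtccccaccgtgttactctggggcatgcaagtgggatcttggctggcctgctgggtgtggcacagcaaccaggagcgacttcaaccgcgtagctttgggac
The Col27a1 window held 1 SMAD box, the core site of the TGF-beta effectors, as GTCTG 205 bases before the start, and 1 GC box, GGGCGG, 85 bases before it. The Col15a1 window held none of the 5. Both strands were searched for the SMAD box CAGAC (in 42.2% of 32851 windows of this length), the SMAD palindrome GTCTAGAC (0.167%), the PU.1 site GAGGAAGT (2.44%), the GC box GGGCGG (32.7%) and the AP-1 site TGANTCA (6.75%), none of which contains another. These matches describe letters only and say nothing of binding.

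Col27a1 had 3.61, 1.57 and 2.46 CPM in E16 T2MG libraries against 5.35, 9.71 and 7.6 CPM in E16 Control libraries. At P15 it had 1.51, 0.784 and 0.0817 CPM in T2MG against 20.8, 25.7 and 19.2 CPM in Control. Its P60 levels were 0.211, 0.624, 0.0779 and 0.0718 CPM in T2MG against 18.6, 34.2, 49.5 and 36.8 CPM in Control. The groups did not overlap at any stage: the Control level was higher after birth and the T2MG level lower. The log2 fold change was -1.57 at E16 (SE 0.56, adjusted p 0.147), -4.76 at P15 (SE 0.63, adjusted p 4.57e-05) and -7.16 at P60 (SE 0.64, adjusted p 1.26e-07). It moved to -5.56 at P15 without P15 T2MG 1 and to -8.05 at P60 without P60 T2MG 2. The effect was larger at P15 than at E16 (difference -3.19, SE 0.81, adjusted p 0.0136), and -3.99 without P15 T2MG 1. The further difference of P60 against P15 was -2.40 (SE 0.87, adjusted p 0.0951), and it passed the test under DESeq2 (-2.51, adjusted p 0.021). In Control libraries Col27a1 rose by 1.53 at P15 relative to E16 (SE 0.53, adjusted p 0.0233), and this call was lost on leaving out E16 Control 1 (adjusted p 0.0827), E16 Control 3 (0.0601) or P15 Control 2 (0.0678).

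Col15a1 had 1.52, 1.2 and 1.28 CPM in E16 T2MG libraries against 3.07, 5.46 and 3.72 CPM in E16 Control libraries. P15 libraries had 0.757, 0.522 and 0.245 CPM in T2MG against 4.28, 5.01 and 2.87 CPM in Control. The P60 values were 0.704, 0.178, 0.156 and 0.0718 CPM in T2MG and 5.54, 9.23, 8.9 and 9.76 CPM in Control. T2MG libraries were below Control libraries at every stage with no overlap. The log2 fold change was -1.61 at E16 (SE 0.53, adjusted p 0.109), -2.96 at P15 (SE 0.56, adjusted p 0.000961) and -4.84 at P60 (SE 0.53, adjusted p 1.34e-06), and -5.88 at P60 without P60 T2MG 1. The differences between stages were not called, at -1.36 for P15 against E16 (adjusted p 0.228) and -1.88 for P60 against P15 (adjusted p 0.125). That of P60 against P15 passed the test under DESeq2 (-1.98, adjusted p 0.0453). An annotated antisense gene, Gm12426, overlaps Col15a1, with the strand setting of the counting not given in the sources used here. Reads of such pairs cannot then be told apart.

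**Figure D2:**
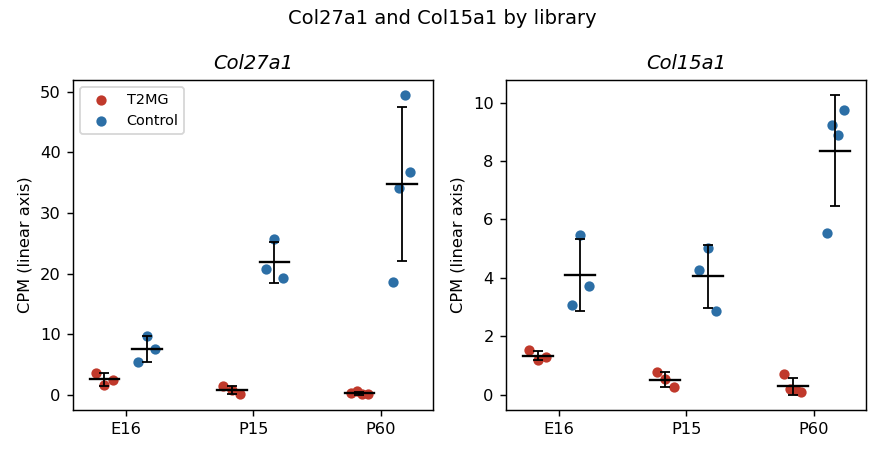
Col27a1 (left) and Col15a1 (right) in CPM on a linear axis at E16, P15 and P60; points are libraries, T2MG in red left of Control in blue, with the mean as a bar and the SD as whiskers. At P60 Col27a1 stands at 0.0718 to 0.624 CPM in T2MG and 18.6 to 49.5 CPM in Control, and Col15a1 at 0.0718 to 0.704 CPM in T2MG and 5.54 to 9.76 CPM in Control.

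Per kilobase of merged exons, Col27a1 averaged 0.0189 ± 0.02 CPM per kb in P60 T2MG libraries against 2.67 ± 0.976 CPM per kb (SD, n = 4) in P60 Control libraries, where it came next after Col9a3 among all chains. Without P60 Control 1 it came first there, at 3.09 ± 0.628 CPM per kb against 1.55 ± 0.804 for Col9a3. Col15a1 averaged 0.0437 ± 0.0454 CPM per kb in P60 T2MG libraries against 1.32 ± 0.301 CPM per kb in P60 Control libraries. By the longest transcript Col27a1 came first in P60 Control, at 4.57 ± 1.67 CPM per kb, its SD overlapping that of Col9a3 at 3.88 ± 3.93. The microglial marker sum was also lower in T2MG, with 29068 to 31855 CPM at P60 against 76194 to 104305 CPM in Control. Its members did not all fall, and C1qb overlapped between the P60 groups. Markers of border macrophages, the macrophages of meninges and perivascular spaces, moved the other way: the sum of 10 markers was 3586 to 5801 CPM in P15 T2MG libraries against 732 to 828 CPM in P15 Control libraries, and 9109 to 15262 CPM in P60 T2MG libraries against 239 to 743 CPM in P60 Control libraries, with 7 of 10 called higher at P15 and 10 of 10 at P60. Of all genes 11.7% were called higher at P15 and 23.5% at P60. In bulk samples fewer cells of a type and less RNA per cell cannot be told apart, and the part of such shifts in the falls was not tested.

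Type IV chains are the mesh of basement membranes. Col4a1 and Col4a2 assemble into 1 heterotrimer, lie head to head on chromosome 8 (11198423 to 11312826, minus strand, and 11312805 to 11449287, plus strand) and overlap by 22 bases at their starts. Both were called higher in T2MG at P15 and P60 and not at E16. Col4a1 had 153, 83.8 and 132 CPM in E16 T2MG libraries against 35.9, 39.7 and 106 CPM in E16 Control libraries, where 1 Control library lay within the T2MG range. Its P15 levels were 16, 13.3 and 93.6 CPM in T2MG against 3.15, 0.609 and 0.637 CPM in Control. T2MG libraries of P60 had 3.1, 14.3, 8.03 and 5.6 CPM against 1.52, 0, 0.0724 and 0 CPM in Control. After birth every T2MG library was above every Control library, and P15 T2MG 3 and P60 Control 1 were the high libraries of their groups. The log2 fold change was 1.02 at E16 (SE 0.80, adjusted p 0.54), 4.78 at P15 (SE 0.99, adjusted p 0.00201) and 4.19 at P60 (SE 0.99, adjusted p 0.00268). At P15 it was 3.30 without P15 T2MG 3 and 5.99 without P15 Control 1, and at P60 it was 7.80 without P60 Control 1.

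Col4a2 had 81.3, 44.8 and 66.9 CPM in E16 T2MG libraries against 19.7, 23.3 and 67.8 CPM in E16 Control libraries, with E16 Control 3 among the T2MG libraries. The P15 values were 15.4, 26.4 and 21.9 CPM in T2MG and 1.32, 1.08 and 1.34 CPM in Control. At P60 it had 3.45, 19.9, 8.96 and 4.24 CPM in T2MG against 0, 0.213, 0 and 0 CPM in Control, where it rested on 3 counts in 1 library. The postnatal groups did not overlap. The rise at P15 was 4.08 (SE 0.67, adjusted p 0.000296). At P60 the ratio of T2MG to Control counts, scaled by library size, was 156, with a 95% counting interval of 53.1 to 760.5 (adjusted p 3.88e-06), and the lone Control library with counts was P60 Control 2. The fitted log2 value at P60, 7.14, was 9.87 without that library and 6.43 without P60 T2MG 2. The genotype effect at P15 exceeded that at E16 by 3.28 for Col4a2 (SE 0.85, adjusted p 0.0148, and 2.49 without E16 Control 3) and by 3.76 for Col4a1 (SE 1.23, adjusted p 0.0456). The Col4a1 difference lost its call under DESeq2 (adjusted p 0.0792), under a replicate block (3.29, adjusted p 0.135) and without any of 9 single libraries, among them P15 T2MG 3 (2.28, adjusted p 0.175) and E16 Control 3 (3.08, adjusted p 0.103).

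Counts of Col4a1 per count of Col4a2 were 1.89, 1.87 and 1.98 in E16 T2MG libraries and 1.82, 1.7 and 1.56 in E16 Control libraries. At P15 they were 1.03, 0.505 and 4.27 in T2MG and 2.38, 0.562 and 0.476 in Control, and at P60 0.898, 0.722, 0.896 and 1.32 in T2MG, with too few Control counts for a ratio. The pair thus kept a narrow ratio before birth and a wide one at P15, where P15 T2MG 3 had 1145 counts of Col4a1 and 268 of Col4a2. The P15 Control ratios rest on few counts, with 50, 9 and 10 of Col4a1 and 21, 16 and 21 of Col4a2.

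Col4a3 and Col4a4, neighbours on chromosome 1 with 71 bases between them, and Col4a5 make a second type IV network known from kidney and lung. Col4a3 had no count in E16 T2MG libraries against 0.198, 0.405 and 0.162 CPM in E16 Control libraries. T2MG libraries of P15 had 0, 0.0653 and 0 CPM against 0.882, 1.9 and 1.85 CPM in Control. At P60 it had 0.986, 2.32, 1.17 and 3.81 CPM in T2MG against 0.277, 0.071, 0.145 and 0.4 CPM in Control. T2MG libraries were thus below Control at E16 and P15 and above Control at P60, without overlap at any stage. At P15 the chain was called lower (adjusted p 0.000782), with a Control to T2MG ratio of 62.5 (95% counting interval 10.9 to 2501) that rests on 1 T2MG count, from P15 T2MG 2 (fitted log2 value -5.52, and -7.31 without that library). At P60 it rose by 3.17 (SE 0.67, adjusted p 0.00138), and the difference between P60 and P15 was called (fitted 8.69, adjusted p 0.000986, and 10.48 without P15 T2MG 2). In Control libraries it rose by 2.57 at P15 relative to E16 (adjusted p 0.0118, and 0.0537 without E16 Control 3) and fell by 2.75 at P60 relative to P15 (adjusted p 0.0139).

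Col4a5 had 3.17, 2.5, 3.2 and 5.96 CPM in P60 T2MG libraries against 0.346, 0, 0.579 and 0.4 CPM in P60 Control libraries, with no overlap. It rose by 3.45 there (SE 0.83, adjusted p 0.00307). At P15 it had 0, 1.89 and 0.409 CPM in T2MG against 2.27, 1.22 and 2.1 CPM in Control (-1.24, adjusted p 0.32), and without P15 T2MG 2 this passed the test (-3.16, adjusted p 0.0318). The effect at P60 exceeded that at P15 by 4.69 (SE 1.21, adjusted p 0.0252, and 6.62 without P15 T2MG 2), a call lost on leaving out P15 Control 1 (adjusted p 0.0519), P15 Control 3 (0.0571), P15 T2MG 3 (0.0527) or P60 T2MG 4 (0.052). Col4a4 and Col4a6 were not called in T2MG at any stage, with log2 fold changes of 1.83 for Col4a4 at P60 (adjusted p 0.152) and 5 T2MG counts against 1 Control count of Col4a6 at P60.

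In Control libraries Col4a1 fell by 5.35 at P15 relative to E16 (SE 1.01, adjusted p 0.000365) and Col4a2 by 4.88 (SE 0.69, adjusted p 2.5e-05). Without E16 Control 3 these values were -4.67 and -4.09, and Col4a1 was at -6.58 without P15 Control 1. Col4a2 was a further 22.9-fold lower in Control libraries at P60 than at P15 by its scaled counts (95% counting interval 7.45 to 114, adjusted p 0.00925), and Col4a1 was not called there (-1.81, adjusted p 0.278). Endothelial and mural cells build vascular basement membranes. The sum of 14 endothelial markers was 107 to 119 CPM in P15 T2MG libraries against 215 to 242 CPM in P15 Control libraries, and 74.3 to 93.8 CPM in P60 T2MG libraries against 221 to 280.4 CPM in P60 Control libraries, with no marker of 14 called higher and 3 called lower at P15 (Eng, Ly6c1 and Slco1a4) and 2 at P60 (Eng and Slc2a1). Of all genes 12.3% were called lower at P15 and 15.7% at P60. Slc2a1, Eng and Pecam1, which other cells also express, made up most of the endothelial sums. Without these 3, left out after their values were seen, the other 11 summed to 14.7, 14.3 and 5.48 CPM in P15 T2MG libraries against 73.3, 28.6 and 51.6 CPM in P15 Control libraries. At P60 they summed to 10, 7.58, 6.7 and 11.1 CPM in T2MG against 16, 8.88, 9.41 and 7.44 CPM in Control, so the groups overlapped. Cldn5, a tight-junction protein that defines brain endothelium, had at most 0.227 CPM in any postnatal library. The sum of 14 mural markers was 41.4 to 43.5 CPM in P15 T2MG libraries against 20.2 to 50.9 CPM in P15 Control libraries, and 23.6 to 36.3 CPM in P60 T2MG libraries against 2.84 to 18.2 CPM in P60 Control libraries. Of 12 mural markers tested, Anpep and Tagln were called higher and Cspg4 lower at P15, and Anpep and Notch3 higher at P60. Of all genes 11.7% were called higher and 12.3% lower at P15, and 23.5% higher at P60. Anpep, a peptidase that myeloid cells also express, had 13, 16.7, 20.1 and 11.2 CPM in P60 T2MG libraries against 1.87, 0.355, 0.579 and 0.4 CPM in P60 Control libraries. Without Anpep, left out after its values were seen, the mural sums at P60 overlapped, at 11.9, 15.1, 16.2 and 12.4 CPM in T2MG and 16.3, 2.49, 14.2 and 16.2 CPM in Control. Pdgfrb, a receptor of pericytes, was at -1.25 at P60 (adjusted p 0.11). The pericyte gene Rgs5 was at 0 in both P15 groups and in P60 Control libraries and reached 0.144 CPM in P60 T2MG libraries, and Higd1b was at 0 in both P60 groups. The part of endothelial and mural RNA in the type IV results was not tested.

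**Figure D3:**
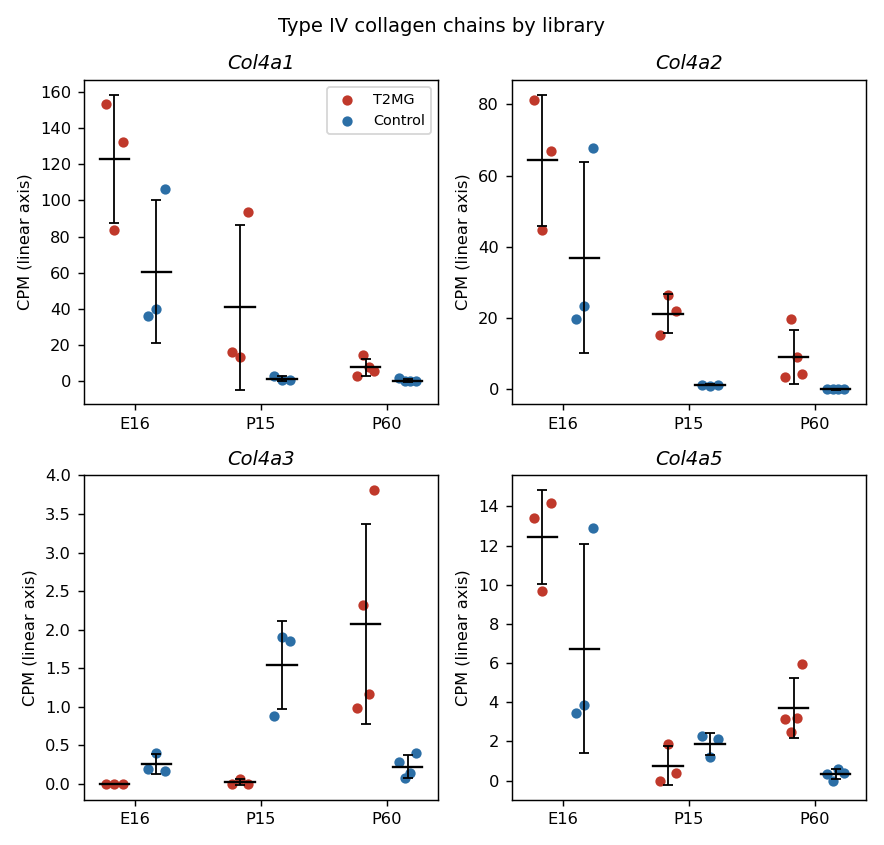
Col4a1, Col4a2, Col4a3 and Col4a5 in CPM on linear axes at E16, P15 and P60; points are libraries, T2MG in red left of Control in blue, with the mean as a bar and the SD as whiskers. Col4a1 and Col4a2 are higher in every postnatal T2MG library than in any Control library of the same stage, and Col4a3 is lower in T2MG at P15 and higher at P60.

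The fibrillar chains of connective tissue, Col1a1, Col1a2, Col3a1, Col5a1 and Col5a2, were the most abundant collagens at E16. Per kilobase of merged exons, Col1a1 led with 62.7 ± 43.5 CPM per kb in E16 T2MG libraries against 44.7 ± 41.7 in E16 Control libraries, followed by Col3a1 with 57.9 ± 29.4 in T2MG against 38.3 ± 34.1 in Control and Col1a2 with 24.2 ± 13.9 in T2MG against 16.1 ± 14.2 in Control (SD, n = 3 each). These neighbours did not differ beyond their spread, and by the longest transcript Col3a1 came first. Col1a1 had 719, 155 and 360.4 CPM in E16 T2MG libraries against 184, 91.4 and 604 CPM in E16 Control libraries. At P15 it had 74.4, 59.2 and 0.163 CPM in T2MG against 53.6, 34.8 and 20.5 CPM in Control. P60 libraries had 5.42, 5.97, 4.21 and 17.6 CPM in T2MG against 3.05, 0.284, 0.869 and 0.4 CPM in Control. T2MG and Control overlapped at E16 and P15 and not at P60, where the value of 2.82 missed the threshold (SE 1.11, adjusted p 0.0512, and 0.0188 by DESeq2).

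Col1a2, the partner of Col1a1 in type I collagen, had 486, 143 and 274 CPM in E16 T2MG libraries against 118, 78.7 and 403 CPM in E16 Control libraries, and 47.4, 80.5 and 10.3 CPM in P15 T2MG libraries against 54.3, 43 and 26.5 CPM in P15 Control libraries. Its P60 levels were 11.8, 7.66, 14 and 16.3 CPM in T2MG against 6.58, 0.71, 0.869 and 1.52 CPM in Control. Only the P60 groups were apart, and P60 Control 1 was the highest Control library. Col1a2 rose by 2.35 at P60 (SE 0.74, adjusted p 0.0171), by 3.60 without P60 Control 1, and lost its call without P60 Control 2 (adjusted p 0.0533) or P60 Control 3 (0.0527).

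Col3a1, the chain of type III collagen in extensible tissues and vessel walls, had 859, 282 and 564 CPM in E16 T2MG libraries against 217, 149 and 760.2 CPM in E16 Control libraries, and 28.1, 29.1 and 0.327 CPM in P15 T2MG libraries against 21.2, 10.2 and 8.22 CPM in P15 Control libraries. The P60 values were 1.34, 5.53, 6 and 8.41 CPM in T2MG and 0.208, 0.213, 0.145 and 0.64 CPM in Control. Here too only the adult groups were apart. Col3a1 rose by 4.13 at P60 (SE 1.14, adjusted p 0.00791, and 4.74 without P60 Control 4). Col5a1 and Col5a2, which start fibrils of type I collagen, were not called at P60. Col5a1 was at 0.82 (adjusted p 0.564), and Col5a2 rested on 9 T2MG counts against 3 Control counts.

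In Control libraries all of these fibrillar chains were called lower at P15 than at E16, where 26.7% of all genes were called lower. Col3a1 fell by 4.83 (SE 0.96, adjusted p 0.000567, and -3.80 without E16 Control 3). Col5a1 had 3.72, 0.474 and 1.08 CPM in P15 Control libraries against 30, 13.6 and 77.5 CPM in E16 Control libraries (-4.51, SE 0.91, adjusted p 0.000662), with -3.62 without E16 Control 3 and -5.67 without P15 Control 1. Col5a2 had 4.85, 1.35 and 0.956 CPM in P15 Control libraries against 19.1, 8.7 and 48.1 CPM in E16 Control libraries (-3.40, SE 0.93, adjusted p 0.00595), with -2.54 and -4.45 without the same libraries. In E16 T2MG libraries Col5a1 was at 18.7 to 94.7 CPM and Col5a2 at 22.2 to 62.8 CPM. The calls of Col1a1 (-3.01, adjusted p 0.0261) and Col1a2 (-2.28, adjusted p 0.0186) ended without E16 Control 3 (adjusted p 0.155 and 0.178), P15 Control 2 (0.0751 and 0.052) or P15 Control 3 (0.0908 and 0.0726). At P60 relative to P15, where 18.6% of all genes were called, Control levels were lower again, by log2 values of -4.94 for Col1a1 (adjusted p 0.00834), -4.07 for Col1a2 (adjusted p 0.00311) and -5.44 for Col3a1 (adjusted p 0.00476). Leaving out P60 Control 1 gave -6.10 for Col1a1 and -5.32 for Col1a2, and leaving out P60 Control 4 gave -6.05 for Col3a1. Col5a2 was called as well (44.2-fold lower by scaled counts, 95% counting interval 14.7 to 217, adjusted p 0.0104, and 0.0688 without P15 Control 1).

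Type VI chains form beaded filaments around cells. Col6a1 had 63, 13.9 and 35.9 CPM in E16 T2MG libraries against 16.9, 6.17 and 64.1 CPM in E16 Control libraries, and 17.9, 36.1 and 3.92 CPM in P15 T2MG libraries against 31.2, 13.7 and 9.69 CPM in P15 Control libraries. T2MG libraries of P60 had 1.41, 1.52, 3.82 and 5.96 CPM against 0.624, 0, 0 and 0 CPM in Control. Apart from P60 Control 1, adult Control libraries held no Col6a1 count, and the groups did not overlap. It rose by 4.22 at P60 (SE 1.16, adjusted p 0.00778, and 8.36 without P60 Control 1). Its partner Col6a2 had 2.11, 1.34, 1.79 and 3.09 CPM in P60 T2MG libraries against 0.0693, 0, 0 and 0 CPM in P60 Control libraries. The lone Control count, again from P60 Control 1, gives a ratio of 117 with a 95% counting interval of 20.5 to 4649 (adjusted p 0.00304, and 0.0121 without that library). The effect on Col6a2 at P60 exceeded that at P15 (fitted 6.06, adjusted p 0.0487), a call lost without any of 12 single libraries and with no filter on low counts (adjusted p 0.0506 to 0.101). At P15 Col6a2 had 23.6, 27 and 0.736 CPM in T2MG against 26, 12.3 and 7.2 CPM in Control, with overlap. In Control libraries Col6a1 fell by 6.73 at P60 relative to P15 (SE 1.16, adjusted p 0.00183), with -10.87 without P60 Control 1 and -6.10 without P15 Control 1. Col6a2 was 838-fold lower there by its scaled counts (95% counting interval 149.8 to 33129.7, adjusted p 0.000817).

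Col6a3, the third chain of the usual type VI molecule, did not follow them. It had 46.9, 13.7 and 26.3 CPM in E16 T2MG libraries against 11.1, 7.99 and 33.2 CPM in E16 Control libraries. P15 libraries had 0.227, 0 and 0 CPM in T2MG against 5.16, 1.42 and 5.74 CPM in Control. At P60 it had 0.986, 0.267, 0 and 1.01 CPM in T2MG against 0.416, 3.27, 1.66 and 2.4 CPM in Control. It was called lower in T2MG at P15 (adjusted p 0.00289), with a Control to T2MG ratio of 56.6 (95% counting interval 19.1 to 277) that rests on 3 T2MG counts from P15 T2MG 1. The fitted log2 value there, -5.62, was -8.74 without that library and -5.02 without P15 T2MG 2. The effect at P15 was below that at E16 (fitted -6.35, adjusted p 0.00822), a value that was -9.47 without P15 T2MG 1, -5.75 without P15 T2MG 2 and -7.23 without E16 Control 3. At P60 it was at -1.72 (SE 0.82, adjusted p 0.104), and it passed the test under DESeq2 (-1.84, adjusted p 0.0466) and without P60 Control 1 (-2.06, adjusted p 0.0377). In the same P15 T2MG libraries Col6a1 and Col6a2 were at 3.92 to 36.1 and 0.736 to 27 CPM.

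Markers of fibroblasts are set beside these chains, and their sums overlapped between the genotypes at every stage. The sum of 15 fibroblast markers, none of them a collagen, was 513, 284 and 352 CPM in E16 T2MG libraries against 212, 128 and 414 CPM in E16 Control libraries. At P15 it was 199.8, 263 and 58.9 CPM in T2MG against 328, 201 and 161 CPM in Control. At P60 it was 68.5, 46.9, 75.4 and 89.2 CPM in T2MG against 51.9, 6.25, 9.34 and 9.2 CPM in Control. E16 Control 3 was the highest library of its group in Col1a1, Col3a1, Col6a1 and this sum, and P15 T2MG 3 the lowest of its group in all of them. P60 Control 1 was the highest of its group in Col1a1, Col6a1 and the sum, but not in Col3a1, where P60 Control 4 was highest at a marker sum of 9.2 CPM. At P60 5 of 15 markers were called higher in T2MG, beside 23.5% of all genes. At E16 and P15 none was called, and Twist1 was at 0 in P60 Control libraries. Dcn, a fibroblast proteoglycan, had 1.55, 2.58, 6.31 and 5.24 CPM in P60 T2MG libraries against 2.98, 0.213, 0 and 0.32 CPM in P60 Control libraries, with P60 Control 1 inside the T2MG range. The part of fibroblast RNA in these results was not tested.

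**Figure D4:**
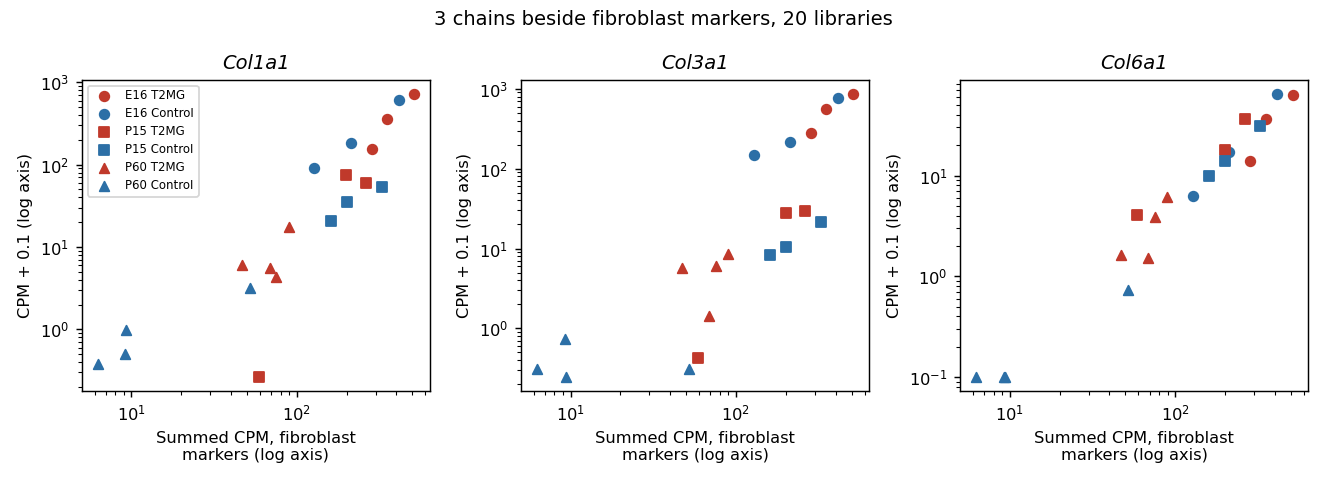
Col1a1, Col3a1 and Col6a1 (CPM + 0.1, log axes) against the summed CPM of 15 fibroblast markers (log axes) in 20 libraries; T2MG in red, Control in blue, circles E16, squares P15, triangles P60. P15 T2MG 3 lies low in Col1a1 and Col3a1 at a marker sum of 58.9 CPM, and P60 T2MG libraries lie at sums of 46.9 to 89.2 CPM against 6.25 to 51.9 CPM in P60 Control.

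Col9a3 and Col8a1 were lower in every T2MG library than in any Control library at P15 and higher in every T2MG library at P60, an order that Col4a3, above, and Col18a1, below, also had. Col8a2, the partner of Col8a1, was not called at either stage. Col9a3 encodes a chain of type IX, which coats cartilage fibrils, and the type VIII chains Col8a1 and Col8a2 form hexagonal networks under endothelia. Col9a3 had 19.5, 7.48 and 16.6 CPM in E16 T2MG libraries against 6.34, 2.02 and 21.6 CPM in E16 Control libraries. Its P15 levels were 22.8, 29.8 and 9.24 CPM in T2MG against 94.1, 76.4 and 122 CPM in Control. P60 libraries had 41.6, 32.4, 41.6 and 57.7 CPM in T2MG against 29.4, 2.49, 8.4 and 7.04 CPM in Control. The order of the groups turned round between P15 and P60 with no overlap at either stage, and P60 Control 1 was the closest to T2MG. Per kilobase of merged exons it was the most abundant chain in P60 T2MG libraries, at 11.2 ± 2.73 CPM per kb, with or without any single library. Its mean was also the highest in P60 Control libraries, at 3.07 ± 3.11 CPM per kb (SD, n = 4 each), but this rested on P60 Control 1, and its median there, 2.0 CPM per kb, was below the 2.73 CPM per kb of Col27a1.

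Between genotypes Col9a3 fell at P15 (-2.24, SE 0.74, adjusted p 0.0353) and rose by 1.87 at P60 (SE 0.64, adjusted p 0.0272, and 2.86 without P60 Control 1). The P15 call ended without P15 Control 1, 2 or 3 (adjusted p 0.0587, 0.0504 and 0.1) or P15 T2MG 1 or 3 (0.073 and 0.125). The P60 call ended without P60 Control 2, 3 or 4 (adjusted p 0.0691, 0.0706 and 0.0757) or P60 T2MG 4 (0.0658). The difference between the effects at P60 and P15, 4.11 (SE 0.98, adjusted p 0.0177), kept its call under every alternative and was 5.10 without P60 Control 1. In Control libraries Col9a3 rose by 3.27 at P15 relative to E16 (adjusted p 0.00226, and 4.54 without E16 Control 3) and fell by 3.04 at P60 relative to P15 (adjusted p 0.00739, and -4.03 without P60 Control 1). The gene Tcfl5 overlaps Col9a3 on the other strand.

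Col8a1 had 8.26, 1.11 and 5.29 CPM in E16 T2MG libraries against 1.39, 0.809 and 6.55 CPM in E16 Control libraries. The P15 values were 11.6, 18.8 and 2.21 CPM in T2MG and 39.7, 23.6 and 43 CPM in Control. Its P60 levels were 25.3, 14.9, 22.7 and 29.8 CPM in T2MG against 4.09, 1.07, 2.1 and 2.88 CPM in Control. The postnatal groups did not overlap, and their order was opposite at P15 and P60. It rose by 3.19 at P60 (SE 0.69, adjusted p 0.00138), was at -1.70 at P15 (SE 0.74, adjusted p 0.103), and the difference of 4.89 between these effects was called (SE 1.02, adjusted p 0.00896, and 5.55 without P15 T2MG 2). In Control libraries it rose by 3.57 at P15 relative to E16 (adjusted p 0.00157, and 5.0 without E16 Control 3) and fell by 3.80 at P60 relative to P15 (adjusted p 0.00315).

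Col8a2 had 40.1, 61.1 and 4.09 CPM in P15 T2MG libraries against 76.8, 57.4 and 80.7 CPM in P15 Control libraries, and 19.9, 16, 21.7 and 34.6 CPM in P60 T2MG libraries against 24, 1.92, 2.82 and 3.04 CPM in P60 Control libraries. At P60 the groups overlapped through P60 Control 1 alone. The values of -1.03 at P15 (adjusted p 0.437) and 1.53 at P60 (adjusted p 0.147) did not pass the test. In E16 libraries Col8a2 had 23.9, 5.82 and 14 CPM in T2MG against 4.85, 3.04 and 22.1 CPM in Control. In Control libraries it was lower at P60 than at P15 (-3.16, adjusted p 0.0204), with -4.79 without P60 Control 1, and the call ended without P15 Control 1 or 3 or P60 Control 2, 3 or 4 (adjusted p 0.0545 to 0.0623).

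Epithelial markers of the choroid plexus, the tissue that makes cerebrospinal fluid, were likewise lower in T2MG at P15 and higher at P60 in their sums, with P60 Control 1 within the T2MG range. The sum of 10 such markers was 106 to 149.6 CPM in E16 T2MG libraries against 38.4 to 150.1 CPM in E16 Control libraries, 4465, 4471 and 1352 CPM in P15 T2MG libraries against 12592, 9588 and 18419 CPM in P15 Control libraries, and 5873, 3884, 5972 and 7293 CPM in P60 T2MG libraries against 4313, 339.9, 933 and 948 CPM in P60 Control libraries. Of these markers 3 of 10 were called lower in T2MG at P15, beside 12.3% of all genes, and 3 of 10 higher at P60, beside 23.5%. Ttr, the transthyretin gene, had 1888, 1578 and 542 CPM in P15 T2MG libraries against 5155, 3751 and 7309 CPM in P15 Control libraries. At P60 Ttr had 2911, 1886, 2824 and 3084 CPM in T2MG against 1308, 176, 498 and 482 CPM in Control. P60 Control 1 was the high Control library and P15 T2MG 3 the low T2MG library for the markers and for the 3 chains. The part of choroid plexus RNA in these results was not tested.

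**Figure D5:**
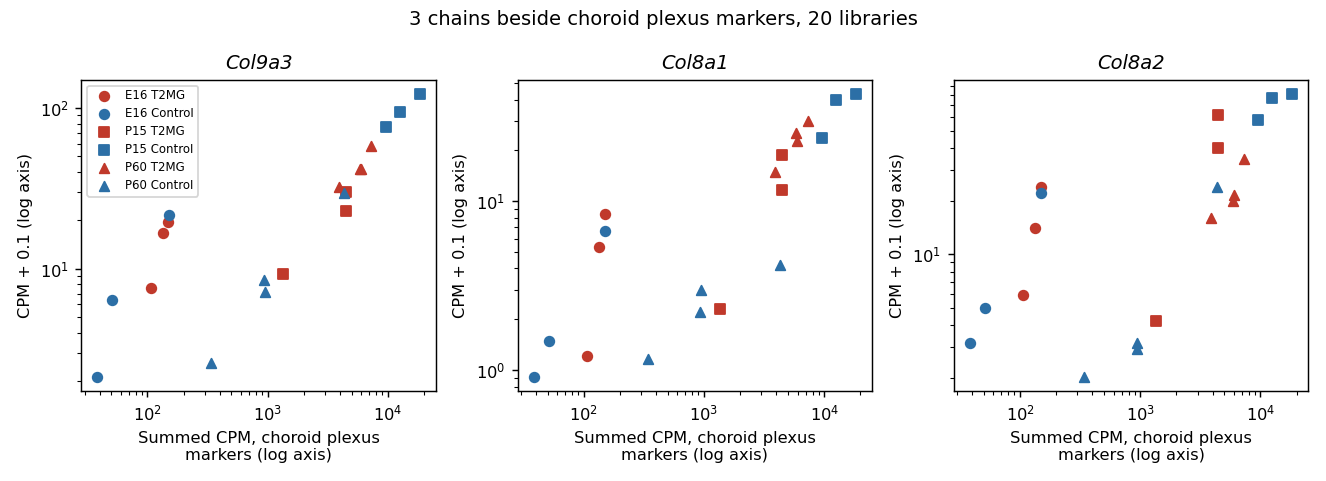
Col9a3, Col8a1 and Col8a2 (CPM + 0.1, log axes) against the summed CPM of 10 choroid plexus epithelial markers (log axes) in 20 libraries; T2MG in red, Control in blue, circles E16, squares P15, triangles P60. P15 Control libraries lie at marker sums of 9588 to 18419 CPM and P60 Control 1 at 4313 CPM, among the P60 T2MG libraries at 3884 to 7293 CPM.

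Col18a1, whose C-terminal fragment is endostatin, an inhibitor of vessel growth, changed order like Col9a3. It had 61.4, 28.7 and 49 CPM in E16 T2MG libraries against 15.1, 14.2 and 42.7 CPM in E16 Control libraries. T2MG libraries of P15 had 0.757, 2.02 and 0 CPM against 4.22, 5.14 and 9.43 CPM in Control. The P60 values were 3.52, 0.98, 2.18 and 1.29 CPM in T2MG and 0.831, 0.213, 0.362 and 0 CPM in Control. The postnatal groups did not overlap. Its log2 fold change was -2.70 at P15 (SE 0.82, adjusted p 0.0229) and 2.45 at P60 (SE 0.81, adjusted p 0.0226). The P15 value was -3.98 without P15 T2MG 2, and its call ended in a fit of that stage only (adjusted p 0.104) and without P15 Control 3 (0.0904), P15 T2MG 1 (0.0669) or P15 T2MG 3 (0.0593). The P60 value was 3.29 without P60 Control 1, and its call ended without P60 Control 2 (adjusted p 0.061), P60 Control 4 (0.058) or P60 T2MG 1 (0.0784). The effect at P15 was below that at E16, with a difference of -3.65 (SE 1.08, adjusted p 0.0286), with -4.37 without E16 Control 3 and -4.93 without P15 T2MG 2, and this call was lost without any of 6 other single libraries (adjusted p 0.0587 to 0.082). The difference between the effects at P60 and P15 was 5.15 (SE 1.15, adjusted p 0.0134), called under every alternative, with 6.43 without P15 T2MG 2 and 5.98 without P60 Control 1. Slc19a1 overlaps Col18a1 on the other strand.

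Among fibril-associated chains, Col14a1, which binds the surface of type I fibrils, rose in T2MG libraries of the adult. It had 14.9, 1.85 and 4.38 CPM in E16 T2MG libraries against 3.76, 0.911 and 10.5 CPM in E16 Control libraries. At P15 it had 11.7, 5.75 and 5.31 CPM in T2MG against 3.28, 3.18 and 1.91 CPM in Control. T2MG libraries of P60 had 12, 17.6, 10.9 and 9.48 CPM against 1.52, 1.42, 1.09 and 0.88 CPM in Control. It rose by 3.34 at P60 (SE 0.65, adjusted p 0.000561), between 3.13 and 3.45 in every alternative, and was at 1.44 at P15 (adjusted p 0.141), where the groups did not overlap either. P15 T2MG 3 and P60 Control 1, which stood apart in Col1a1 and Col1a2, were close to their groups in Col14a1. An annotated antisense gene overlaps Col14a1.

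Col20a1, a related chain, had 1.97, 4.19, 1.71 and 1.87 CPM in P60 T2MG libraries against 0.416, 0.142, 0.579 and 0.32 CPM in P60 Control libraries. It rose by 2.70 there (SE 0.81, adjusted p 0.013) with no overlap, and had 0.983, 0.522 and 0.49 CPM in P15 T2MG libraries against 0.567, 0 and 0.0637 CPM in P15 Control libraries (adjusted p 0.245, and 0.0315 without P15 Control 1). Col28a1 had 1.62, 1.16, 1.09 and 0 CPM in P60 T2MG libraries and no count in P60 Control libraries. Set against a floor of 3 counts over the Control group it was at least 17.5-fold higher (adjusted p 0.0067), although P60 T2MG 4 was also at 0. Col28a1 is known from the glia of peripheral nerves. At P60 markers of oligodendrocytes summed to 999.9 to 1851 CPM in T2MG libraries against 304 to 396 CPM in Control libraries, with 12 of 12 called higher, and neuronal markers to 66.3 to 84.2 CPM in T2MG against 7.24 to 34.9 CPM in Control, with 10 of 16 called higher. Astrocyte markers summed to 226 to 411 CPM in T2MG against 224 to 304 CPM in Control, with 13 of 14 called higher and 1 lower. Slc1a3 made up most of the Control sums. It had 53, 34.3, 36.8 and 27.7 CPM in T2MG against 204, 229, 224 and 201 CPM in Control. Of all genes 23.5% were called higher and 15.7% lower at P60. The part of glial and neuronal RNA was not tested.

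Transmembrane collagens are single-pass proteins whose ectodomains can be shed. Col17a1, an anchor of epithelial cells to their basement membrane, had 0.378, 0 and 0 CPM in P15 T2MG libraries against 8.44, 1.62 and 5.16 CPM in P15 Control libraries. It fell by 5.25 (SE 1.3, adjusted p 0.00705) with no overlap, and was at -9.04 without P15 T2MG 1 and -4.65 without P15 T2MG 2. At P60 it had 0, 0.446, 0.702 and 0.718 CPM in T2MG against 0.208, 0.142, 0.0724 and 0 CPM in Control (2.01, adjusted p 0.173). The effect at P60 exceeded that at P15 by 7.26 (SE 1.71, adjusted p 0.017), 11.05 without P15 T2MG 1 and 6.66 without P15 T2MG 2. At E16 it had 0.475, 0 and 0.912 CPM in T2MG against 0.594, 0.304 and 0.808 CPM in Control. The chain was thus seen mainly in Control libraries of P15.

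Col25a1, a neuronal transmembrane collagen found in amyloid plaques, had 0, 0.0891, 0.624 and 0.0718 CPM in P60 T2MG libraries against 1.25, 0.568, 0.869 and 1.76 CPM in P60 Control libraries. It fell by 2.46 (SE 0.87, adjusted p 0.0328) with 1 T2MG library, P60 T2MG 3, inside the Control range, and was at -4.19 without that library. The call ended without P60 Control 4 (adjusted p 0.0832) or P60 T2MG 1, 2 or 4 (0.0807, 0.0794 and 0.0908). Neuronal markers moved the other way, as given above. At E16 it had 5.32, 3.51 and 5.2 CPM in T2MG against 1.19, 1.01 and 4.2 CPM in Control (adjusted p 0.527). Col23a1 was at 0.36 at P60 (adjusted p 0.638), and Col13a1 had at most 3.61 CPM in any library.

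Among chains known from cartilage and other developing tissue, Col2a1, Col26a1, Col11a1, Col9a1 and Col22a1 were seen mainly at E16 in both genotypes. They were not called between the genotypes at any stage, with Col26a1 at P60 passing under DESeq2 alone (3.15, adjusted p 0.047). Col27a1 and Col9a3, given above, differed from them in both respects. Col2a1, the main chain of cartilage fibrils, had 120.4, 28.9 and 82.1 CPM in E16 T2MG libraries against 25, 12.1 and 75.3 CPM in E16 Control libraries, with overlap. After birth it reached at most 1.07 CPM in any library. Col26a1, a gene first described in testis and ovary, had 46.6, 24.6 and 32.6 CPM in E16 T2MG libraries against 16.8, 9.11 and 38.8 CPM in E16 Control libraries and at most 1.24 CPM later. In Control libraries Col2a1 fell by 7.02 at P15 relative to E16 (SE 1.24, adjusted p 0.000534), with -6.01 without E16 Control 3 and -11.91 without P15 Control 3. Col26a1 fell by 6.90 (SE 1.10, adjusted p 8.04e-05, and -6.16 without E16 Control 3). Col11a1, which nucleates cartilage fibrils, had 26.7, 6.28 and 18.1 CPM in E16 T2MG libraries against 4.75, 4.86 and 11 CPM in E16 Control libraries, and in Control libraries its P15 value was -4.56 relative to E16 (SE 0.99, adjusted p 0.00114). Col9a1 and Col22a1 had no count in P15 Control libraries and were at least 39.6-fold and 57.3-fold lower than at E16 against the same floor of 3 counts (adjusted p 0.00649 and 0.000287). Neuronal markers summed to 1101 to 1345 CPM in E16 T2MG libraries against 378 to 845 CPM in E16 Control libraries and to at most 149.7 CPM in any later library.

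The other chains with a stage call and a mean of at least 10 CPM in some group were Col9a2, Col12a1, Col16a1 and Col23a1. Col9a2, a partner of Col9a3, had 29, 8.13 and 14.1 CPM in E16 T2MG libraries against 7.23, 2.33 and 20.9 CPM in E16 Control libraries and at most 1.99 CPM after birth, so it did not share the postnatal levels of Col9a3. In Control libraries Col9a2 fell by 3.41 at P15 (adjusted p 0.0056, and -2.32 with adjusted p 0.0518 without E16 Control 3). Col12a1, a chain on the surface of type I fibrils, had 21.9, 3.79 and 12.4 CPM in E16 T2MG libraries against 2.67, 1.32 and 14.1 CPM in E16 Control libraries, and 1.13, 10.5 and 0 CPM in P15 T2MG libraries against 8.19, 1.42 and 3 CPM in P15 Control libraries. It was 117-fold lower in Control libraries at P60 than at P15 by scaled counts (95% counting interval 32 to 974, adjusted p 0.0113, and 0.0505 without P15 Control 1), resting on 2 counts in P60 Control 1. Both chains had overlapping genotype groups at E16.

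Col16a1, a fibril-associated chain of skin and smooth muscle, had 33.6, 5.91 and 15 CPM in E16 T2MG libraries against 9.01, 5.16 and 24.4 CPM in E16 Control libraries, and 2.5, 1.7 and 1.06 CPM in P15 T2MG libraries against 4.09, 1.42 and 0.956 CPM in P15 Control libraries. In Control libraries it was at -2.57 at P15 relative to E16 (adjusted p 0.0323) and at -4.16 at P60 relative to P15 (adjusted p 0.0177). Leaving out E16 Control 3, P15 Control 2 or P15 Control 3 ended the first of these calls (adjusted p 0.102 to 0.184), and leaving out P15 Control 1, P60 Control 2 or P60 Control 3 ended the other (0.0523 to 0.101). The values were also -3.43 and -3.30 without P15 Control 1, and the P60 value was -7.81 without P60 Control 4. Col23a1, a transmembrane chain, had 26.9, 16 and 22 CPM in E16 T2MG libraries against 8.02, 7.08 and 18 CPM in E16 Control libraries, and 8.17, 4.31 and 1.06 CPM in P15 T2MG libraries against 6.05, 2.98 and 2.36 CPM in P15 Control libraries. Its lower level in Control libraries at P15 (-1.54, adjusted p 0.0417) ended without E16 Control 3, P15 Control 2 or P15 Control 3 (adjusted p 0.122 to 0.223).

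Over all chains, 6 were called higher and 25 lower in Control libraries at P15 relative to E16, 79.5% of the chains tested beside 50.7% of all genes (24.0% higher and 26.7% lower). The 6 that rose were Col4a3, Col8a1, Col8a2, Col9a3, Col17a1 and Col27a1. The call of Col8a2 (2.83, adjusted p 0.0223) ended without E16 Control 1 (0.0796) or E16 Control 2 (0.0835). The call of Col17a1 (3.12, adjusted p 0.029) ended without any of 5 single libraries, with adjusted p 0.0561 to 0.103. Without E16 Control 3, the library with the highest collagen sum of its group, 15 chains were called, and 17 and 18 without P15 Control 2 or P15 Control 3. At P60 relative to P15, 15 chains were lower and none higher in Control libraries, 38.5% of the chains beside 18.6% of all genes (5.61% higher), and 11 to 18 were called when single libraries were left out. Stage comparisons also hold any difference in library making between stages, which cannot be told apart from age.

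Genes that fold, modify and cross-link collagen, 31 in all, were tested beside the chains. At E16 none was higher and 2 were lower in T2MG, at P15 2 were higher and 3 lower, and at P60 6 were higher and 4 lower. That is 6.45%, 16.1% and 32.3% of the list at E16, P15 and P60, beside 3.20%, 24.0% and 39.3% of all genes. Sparc, a secreted collagen-binding glycoprotein, averaged 125 ± 46.2 CPM in E16 T2MG libraries against 702 ± 330.3 CPM in E16 Control libraries, 252 ± 81.2 CPM in P15 T2MG libraries against 3202 ± 711 CPM in P15 Control libraries (SD, n = 3 each) and 97 ± 37.5 CPM in P60 T2MG libraries against 6592 ± 2119 CPM in P60 Control libraries (SD, n = 4 each). It fell at all 3 stages, with log2 fold changes of -2.49 at E16 (adjusted p 0.0025), -3.67 at P15 (adjusted p 1.45e-05) and -6.09 at P60 (adjusted p 8.57e-09). P4ha1, a prolyl hydroxylase subunit needed for a stable helix, fell as well, with -0.64 at E16, -1.18 at P15 and -0.90 at P60 (adjusted p 0.0277, 3.17e-05 and 2.97e-05). Its homologue P4ha2 rose by 3.05 at P60 (adjusted p 2.75e-05), with 11.3 ± 3.02 CPM in T2MG against 1.35 ± 0.865 CPM in Control. Colgalt1, which adds galactose to hydroxylysine, rose by 1.19 at P15 and 1.07 at P60 (adjusted p 4.66e-05 and 8.16e-06), and Crtap, a partner of prolyl 3-hydroxylase, by 0.93 and 1.13 (adjusted p 0.00212 and 4.17e-05). Plod2, a lysyl hydroxylase, was called lower at P15, at 0.0653 ± 0.113 CPM in T2MG against 1.48 ± 0.367 CPM in Control (adjusted p 0.0021). Its relative Plod3 fell by 0.88 at P60 (adjusted p 0.000186).

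Of 12 collagen receptor genes 10 were tested. None was called at E16, 1 was higher and 2 lower at P15, and 2 were higher and 3 lower at P60. These 3 of 10 at P15 and 5 of 10 at P60 stand beside 24.0% and 39.3% of all genes. Adgrg1, an adhesion G protein-coupled receptor that binds type III collagen, averaged 156 ± 16.2 CPM in E16 T2MG libraries against 148 ± 53.3 CPM in E16 Control libraries, then fell after birth, with -4.56 at P15 (adjusted p 2.39e-06) and -6.75 at P60 (adjusted p 3.41e-09), where it had 14.7 ± 6.26 CPM in T2MG against 1592 ± 106 CPM in Control. Lair1, an inhibitory receptor for collagen on immune cells, fell likewise, with -1.46 at P15 and -1.86 at P60 (adjusted p 0.0128 and 0.000405). Mrc1, the mannose receptor, which takes up collagen and marks border macrophages, rose by 3.78 and 5.41 (adjusted p 1.37e-05 and 2.5e-08), reaching 2430.1 ± 561 CPM in P60 T2MG libraries against 57.1 ± 31.6 CPM in P60 Control libraries. Mrc2, the collagen uptake receptor of fibroblasts, fell by 4.20 at P60 (adjusted p 0.000349), to 1.69 ± 1.01 CPM in T2MG against 31.5 ± 9.59 CPM in Control. Ddr1, a tyrosine kinase receptor of epithelia, rose by 1.88 at P60 (adjusted p 0.00744).

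Of 20 other matrix genes none was called at E16, 3 were higher and 2 lower in T2MG at P15, and 11 were higher at P60. The list had 25.0% called at P15, beside 24.0% of all genes, and 55.0% called higher at P60, beside 23.5%. The laminin subunits Lamb2 and Lamc1, partners of type IV collagen in basement membranes, rose at both P15 (1.04 and 1.75, adjusted p 0.0264 and 0.0144) and P60 (1.98 and 1.82, adjusted p 3.06e-05 and 0.00246). Lamb1 fell by 3.20 at P15 (adjusted p 0.000342) and rose by 1.44 at P60 (adjusted p 0.0197), with 1.99 ± 0.185 CPM in P15 T2MG libraries against 18.4 ± 7.23 CPM in P15 Control libraries. Fbn1, the microfibril protein fibrillin, rose by 5.32 at P60 (adjusted p 0.000871), and Postn, a matricellular protein of connective tissue, by 1.29 (adjusted p 0.0151). Eln, the elastic fibre protein, was called lower at P15, at 0.0252 ± 0.0437 CPM in T2MG against 1.17 ± 0.144 CPM in Control (adjusted p 0.00365), and rose by 3.08 at P60 (adjusted p 0.00143). Vcan, a large proteoglycan, rose by 4.57 at P15 (adjusted p 0.000542), with 21.7 ± 27.9 CPM in T2MG against 0.897 ± 0.764 CPM in Control.

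The 20 chains never called between the genotypes were Col1a1, Col2a1, Col4a4, Col4a6, Col5a1, Col5a2, Col5a3, Col6a6, Col7a1, Col8a2, Col9a1, Col9a2, Col11a1, Col11a2, Col12a1, Col13a1, Col16a1, Col22a1, Col23a1 and Col26a1. The 5 chains not tested reached at most 1.42 CPM, for Col24a1 in E16 T2MG 1. Across T2MG and Control, 9 chains at P15 and 15 at P60 were both called and free of overlap between the groups, beside 22.4% and 33.3% of all genes that were both.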

How the data were processed

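The authors deposited whole-number counts of reads per gene symbol, 1 column per library. A Qiagen micro kit gave the RNA, per the labels' protocols, and Clontech's SMART-Seq ultra low input kit the amplified cDNA. Per the submitters' processing notes, TopHat2 0.7, Cufflinks 2.2.1 and mm10 were used, with counting tool and strand not given in the sources used here. Of 24421 entries, 27 that held a date in place of a symbol (0.122% to 0.256% of counts) were left out.

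The counts were fitted with edgeR 4.0.16 (R 4.3.3), using filterByExpr, TMM and 1 quasi-likelihood model of 6 groups and 20 libraries (biological coefficient of variation 0.327). The genotype was compared at each stage, its effect between stages, and Control between stages. The script was tested on simulated counts. Exon lengths and positions are of GENCODE M21, in which 23350 symbols were found, and promoters of RefSeq. Replicates came from separate animals per the series' text. Between libraries of a group, the chi-square per gene against sampling alone was lowest for E16 T2MG 1 and 3, at 5.25. All other pairs were at 15.6 to 152. Counting intervals (exact, 95%) and the floor of 3 counts over a group cover counting error only, since amplified reads are not independent molecules. Alternatives were DESeq2 1.42.0, RLE scaling, no filter, a fit of 1 stage, a replicate block, the longest transcript and leaving out each library. Marker sums without their leading members and the order per kb without single P60 libraries were added after seeing the data. The members and lists were chosen with earlier results of these data known. Chains were given in full where called between genotypes, where called between Control stages with a mean of at least 10 CPM in a group, or where among the 5 highest per kb. Up to 6 genes of each other list were named by smallest adjusted p.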

Additional observations from a re-analysis of the deposited data

Results flagged for a closer look

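The genotype effect on 12 chain values differed between neighbouring stages by the test of the difference itself (edgeR's quasi-likelihood test, adjusted over all genes). Between E16 and P15 the log2 effect changed by -3.19 for Col27a1 (adjusted p 0.0136), -3.65 for Col18a1 (adjusted p 0.0286), 3.28 for Col4a2 (adjusted p 0.0148) and 3.76 for Col4a1 (adjusted p 0.0456). It changed by a fitted -6.35 for Col6a3 (adjusted p 0.00822), which had 3 counts in P15 T2MG libraries. Between P15 and P60 it changed by 4.11 for Col9a3 (adjusted p 0.0177), 4.89 for Col8a1 (adjusted p 0.00896), 5.15 for Col18a1 (adjusted p 0.0134), 7.26 for Col17a1 (adjusted p 0.017) and 4.69 for Col4a5 (adjusted p 0.0252). The fitted changes of 8.69 for Col4a3 (adjusted p 0.000986) and 6.06 for Col6a2 (adjusted p 0.0487) rest on a group with 1 count each. The call of Col4a1 was kept in 5 of 16 alternatives, that of Col6a2 in 5 of 18, that of Col18a1 between E16 and P15 in 10 of 16 and that of Col4a5 in 14 of 18. The other 8 were kept in every alternative.

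Single libraries stood apart from the other 3 of their group at P60 in 14 of 66 sets checked, where chance flags about 1 in 20. P60 Control 1 was high in Col1a2 (6.58 CPM), Col4a1 (1.52 CPM), Col5a1 (1.04 CPM) and Col8a2 (24 CPM). The same library was high in the summed markers of fibroblasts (51.9 CPM), neurons (34.9 CPM), choroid plexus (4313 CPM), neutrophils and monocytes (6982 CPM) and lymphocytes (413 CPM). P60 T2MG 1 was high in Col15a1 (0.704 CPM) and Col9a2 (0.916 CPM), P60 T2MG 2 in Col20a1 (4.19 CPM) and Col2a1 (1.07 CPM), and P60 T2MG 4 in Col1a1 (17.6 CPM).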

How the results depend on the processing

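Calls held under every alternative that gave the chain an adjusted p for 7 of 9 chains at P15 and 13 of 17 at P60. Of these 13, Col28a1 had 12 such alternatives where the others had 13. Among differences between stages 3 of 5 calls held for P15 against E16 and 5 of 7 for P60 against P15. Among Control stage comparisons 12 of 31 and 11 of 15 calls held, in the same order. The number of chains called moved under DESeq2 to 1 at E16 (0 in edgeR) and to 13 for the change in effect from P15 to P60 (7 in edgeR). Leaving out single libraries gave 0 to 0 chains at E16, 7 to 11 at P15, 14 to 20 at P60, 3 to 7 and 5 to 10 for the changes in effect, 15 to 27 for Control at P15 against E16 (31 with all libraries) and 11 to 18 for Control at P60 against P15. The same omissions gave 148 to 961 genes called at E16 (498 with all libraries), 2470 to 4086 at P15 (3738), 5199 to 7354 at P60 (6113), 1411 to 3191 and 580 to 2665 for the changes in effect (2534 and 1249), and 6560 to 7304 and 1293 to 4944 for the Control stages (7896 and 2893). Genes called at E16 were 953 under DESeq2, 319 in a fit of that stage only and 276 under the replicate block. At P15 2209 genes were called in a fit of that stage only, and 2288 genes for the change from P15 to P60 under DESeq2. The cause of these moves was not tested.

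Replicate numbers did not pair all libraries of any stage (correlations of same-numbered deviations -0.0631 to 0.333). At E16 the T2MG libraries numbered 2 and 3 correlated best with the Control library of their own number (0.333 and 0.097). At P15 and P60 only number 1 did (0.133 and 0.224). The replicate block left 0, 9 and 19 chains called at E16, P15 and P60 and 5 and 8 for the changes in effect, ended the call of Col4a1 for P15 against E16 (3.29, adjusted p 0.135), and turned the sign of uncalled P15 values of Col1a2 (-0.19), Col3a1 (-0.09), Col6a1 (-0.24) and Col6a2 (-0.46). Uncalled values that changed sign when single libraries were left out ranged at E16 from -0.71 to 1.59 for Col14a1, -1.25 to 0.27 for Col17a1, -0.32 to 1.55 for Col20a1, -0.19 to 1.32 for Col28a1, -0.23 to 1.70 for Col6a1 and -0.15 to 1.38 for Col6a2, and at P15 from -0.52 to 0.63 for Col1a2, -0.74 to 0.70 for Col6a1 and -0.32 to 0.78 for Col6a2. No direction is drawn for these. Chains with 3 or fewer counts in a group have fitted values that depend on the prior count, and E16 libraries, at 7437764 to 9221396 counts, limit what was detectable there.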
